A study of Ovis aries with 48 samples.

Results

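MIR133, the ovine row of the microRNA family miR-133, was followed through every small RNA library of a study of sheep fat. It is 1 of 4920 RNA rows listed in 4 classes (microRNA, snoRNA, snRNA and lncRNA). It was chosen by name, as a microRNA of striated muscle found in adipose tissue, with earlier results of these data known. Its level was read as normalised reads and as CPM, the reads of MIR133 scaled to a common total of microRNA reads per library. Small RNA was sequenced from bulk fat of 16 female sheep, in 48 libraries, with 4 sheep in each of 12 groups.

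In the T cohort, 4 prenatal T sheep were born to mothers injected in muscle with 100 mg testosterone propionate in corn oil (about 1.2 mg/kg) from gestational day 30 to 90, and 4 control sheep were set against them. The labels do not say whether the mothers of these controls received oil. Epicardial, perirenal, visceral and subcutaneous fat were taken from each of the 8 sheep. In the BPA cohort, mothers of 4 sheep received 0.5 mg/kg bisphenol A (BPA) in corn oil each day under the skin over the same days, mothers of 4 controls received corn oil alone, and visceral and subcutaneous fat were taken. All sheep were kept together on a maintenance diet. The offspring were exposed through their mothers, and the sources used here do not give their age.

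MicroRNAs are short RNAs that hold back the messenger RNAs they pair with. The miR-133 family is made with the miR-1 family from shared transcripts in heart and skeletal muscle, where it takes part in the growth and differentiation of muscle cells. In the mouse it also holds back Prdm16, a factor that turns precursors of muscle and brown fat towards brown fat. Epicardial fat lies directly on heart muscle, whereas perirenal, visceral and subcutaneous fat do not.

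MIR133 was found in all 48 libraries, and its level spanned a 373-fold range, with the high end in epicardial fat. Libraries held 222537 to 1533680 microRNA reads, of which 29 to 13621 were MIR133. The mean of the upper and lower reach of a library's 95% Wilson interval was 1.66% to 37% of its share. At low counts the interval reached further up than down, as in visceral fat of BPA sheep 918 (69.3 CPM, interval 48.3 to 99.5 CPM). These intervals cover counting error only and take each read as independent. Reads were counted without molecular identifiers, so that the intervals can be too narrow. The 8 epicardial libraries held 76.8% of all MIR133 reads, and the 2 highest of them held 56.2%. The median was 2828 CPM over the epicardial libraries and 284 CPM over the other 40. Of the 9 libraries over 1000 CPM, 7 were epicardial. In bulk fat, a change in the number of cells that contain MIR133 and a change in the RNA per cell cannot be told apart.

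In epicardial fat of prenatal T sheep, MIR133 stood at 25852 CPM in sheep 48, 11836 CPM in sheep 185, 2799 CPM in sheep 233 and 372 CPM in sheep 255. In epicardial fat of control sheep it stood at 6332 CPM in sheep 098, 2856 CPM in sheep 131, 2297 CPM in sheep 132 and 1295 CPM in sheep 201. The prenatal T libraries reached above and below all 4 controls, over a 69.5-fold range within 1 group, against 4.89-fold among the controls. In the highest library MIR133 was the microRNA of rank 9, and in the lowest epicardial library it was of rank 44.

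In perirenal fat MIR133 was lower and less scattered in prenatal T sheep. They had 334 CPM (sheep 233), 292 CPM (sheep 48), 281 CPM (sheep 255) and 193 CPM (sheep 185). Controls had 2573 CPM (sheep 132), 640 CPM (sheep 201), 461 CPM (sheep 098) and 317 CPM (sheep 131). Only the highest prenatal T library and the lowest control overlapped on this scale, and 1 control stood far above the other 3.

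In visceral fat of the T cohort the values of the 2 groups interleaved. Prenatal T sheep had 807 CPM (sheep 255), 218 CPM (sheep 233), 130 CPM (sheep 48) and 70.6 CPM (sheep 185). Controls had 1591 CPM (sheep 131), 566 CPM (sheep 132), 186 CPM (sheep 098) and 138 CPM (sheep 201). The range was 11.4-fold in prenatal T and 11.5-fold in control sheep. Library numbers in the labels fall into an early set, up to 48, and a later set, from 81. In this depot the 3 early libraries, at 566 to 1591 CPM, stood above the 5 later ones, at 70.6 to 218 CPM, in both treatments. Over the 8 groups of the study that held both sets, the later set had the lower mean log2 level in 5 and the higher in 3. For prenatal T against control in visceral fat, 16 of 16 alternatives to the main fit kept its negative direction and did not call MIR133. A set term was among them. Fits with a set term for other comparisons are given below. Beyond such fits the part of the set in these values was not tested.

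In subcutaneous fat of the T cohort, prenatal T sheep had 497 CPM (sheep 255), 464 CPM (sheep 185), 201 CPM (sheep 48) and 132 CPM (sheep 233). Controls had 881 CPM (sheep 131), 347 CPM (sheep 098), 287 CPM (sheep 132) and 268 CPM (sheep 201). The groups overlapped, with 1 high control. Sheep 131 had the highest control value in both subcutaneous and visceral fat, but the lowest in perirenal fat.

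Levels in the BPA cohort lay between 69.3 and 700 CPM, with a median of 196 CPM over 16 libraries. In visceral fat, BPA sheep had 700, 289, 139 and 69.3 CPM, and controls 389, 203, 155 and 72.5 CPM. In subcutaneous fat, BPA sheep had 300.1, 290.2, 211 and 114 CPM, and controls 323, 189, 167 and 117 CPM. BPA and control libraries overlapped in both depots.

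**Figure D1:**
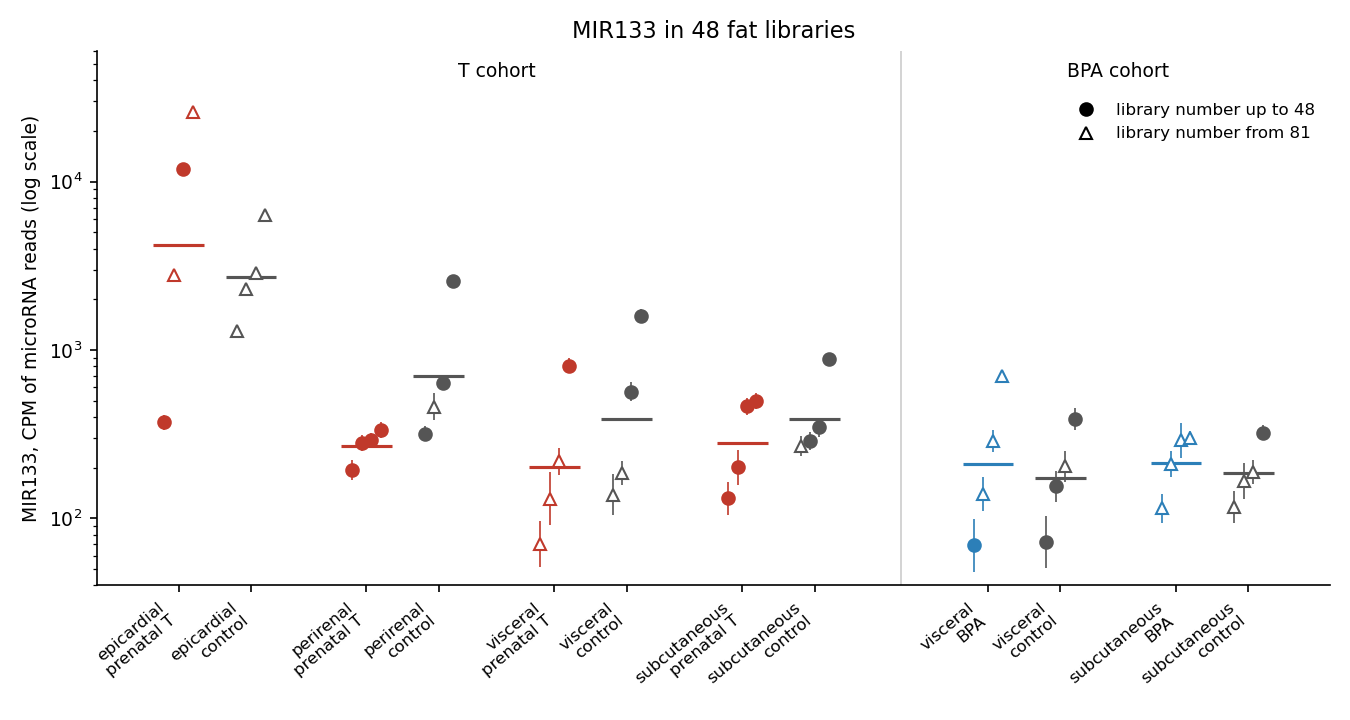
MIR133 in CPM of microRNA reads (log axis) in each of 48 libraries, by depot and treatment. Points are single sheep with 95% Wilson intervals (counting error only), horizontal lines are geometric means, filled circles are library numbers up to 48 and open triangles library numbers from 81. Epicardial libraries reach 25852 CPM, and libraries of the BPA cohort stay at or under 700 CPM.

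Ordered by geometric mean, the 12 groups ran from epicardial prenatal T (4227 CPM) and epicardial control (2709 CPM) to perirenal control (701 CPM). Controls of the T cohort followed with 391 CPM in subcutaneous and 390 CPM in visceral fat. Subcutaneous prenatal T (279.6 CPM) and perirenal prenatal T (269.8 CPM) came next, then subcutaneous BPA (214 CPM), visceral BPA (211 CPM) and visceral prenatal T (201 CPM). Subcutaneous (186 CPM) and visceral (173 CPM) controls of the BPA cohort were lowest. Every pair of neighbours in this order overlapped in single libraries. Compared with other microRNAs by mean share, MIR133 ranked 23 in epicardial fat, between MIR27A and MIR16B. Its epicardial mean of 6705 CPM lay above the median of 2828 CPM. In single epicardial libraries MIR133 ranked 24 to 34 in control and 9 to 44 in prenatal T sheep. In the other depots of the T cohort it ranked 38 in subcutaneous fat, between MIR107 and MIR30B, 39 in perirenal fat, between MIR493 and MIR30B, and 41 in visceral fat, between MIR379 and MIR409. In the BPA cohort it ranked 41 in subcutaneous and 44 in visceral fat.

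Since the depots of the T cohort came from the same 8 sheep, depots were compared within sheep. MIR133 was highest in epicardial fat in 6 of 8 sheep. Over the sheep's next highest depot the epicardial level was 88.5-fold in sheep 48, 25.5-fold in sheep 185, 13.7-fold in sheep 098 and 8.37-fold in sheep 233. It was 2.02-fold in sheep 201 and 1.80-fold in sheep 131. In sheep 132 it was 0.893 times the perirenal level and in sheep 255 0.461 times the visceral level. In 1 sheep of each treatment, then, another depot was higher.

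The mean log2 share in epicardial fat exceeded that in visceral fat by 3.59, a 12-fold difference (exact sign-flip permutation test, two-sided, p = 0.0234, adjusted p = 0.0469 over 6 depot pairs). It exceeded that in subcutaneous fat by 3.35 (exact permutation p = 0.0156, adjusted p = 0.0469) and that in perirenal fat by 2.96 (exact permutation p = 0.0156, adjusted p = 0.0469). Epicardial fat was higher in 7 of 8 sheep in each pair. The smallest p that 8 sheep allow is 0.00781. Among the other depots, perirenal exceeded visceral fat by 0.63 (6 of 8 sheep, adjusted exact permutation p = 0.469) and subcutaneous fat by 0.39 (5 of 8 sheep, adjusted exact permutation p = 0.628). Visceral fat differed from subcutaneous fat by -0.24 (4 of 8 sheep, adjusted exact permutation p = 0.648). In the BPA cohort visceral fat differed from subcutaneous fat by -0.06 (4 of 8 sheep, exact permutation p = 0.867). None of these 4 passed the threshold of 0.05. With any 1 sheep left out the adjusted exact permutation p for epicardial against perirenal fat was 0.0625 or 0.0938, and the other epicardial pairs kept an adjusted p under 0.05 only without sheep 255. The differences themselves stayed between 2.46 and 4.26.

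**Figure D2:**
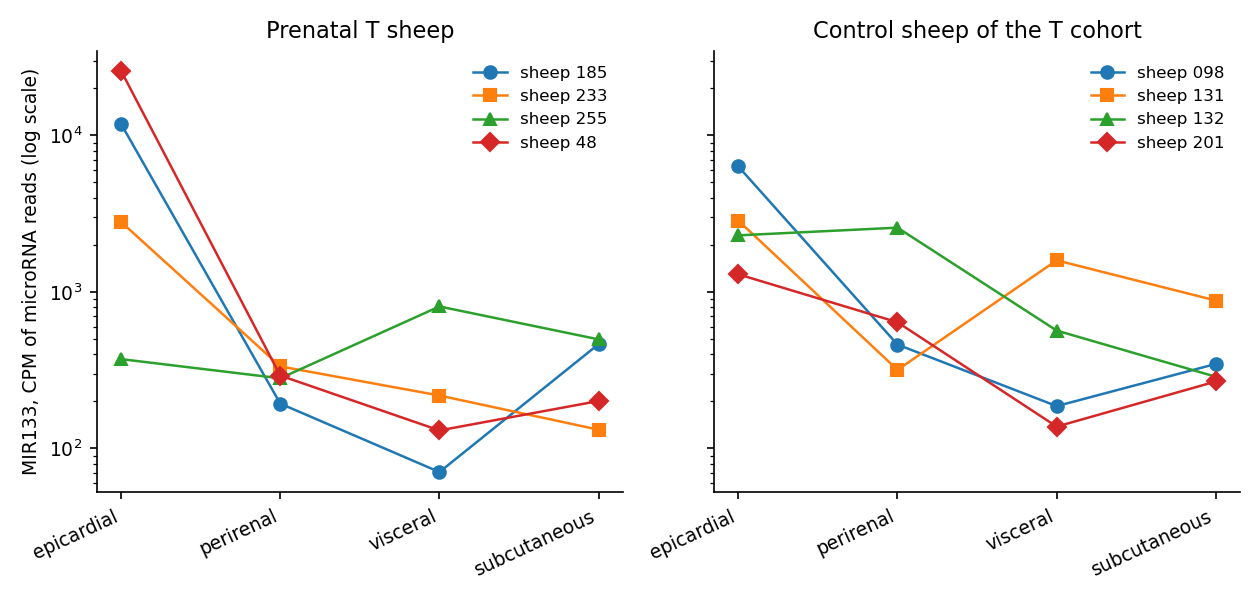
MIR133 in CPM of microRNA reads (log axis) in the 4 depots of each sheep of the T cohort, prenatal T sheep on the left and control sheep on the right, with 1 line per sheep. The line falls from epicardial to perirenal fat in 7 of 8 sheep. It is highest in visceral fat in sheep 255 and in perirenal fat in sheep 132.

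A fit over all microRNAs (limma on log2 of reads rescaled by the median ratio, plus 1) placed the epicardial difference beside that of the other microRNAs. It had no sheep term, so that the 4 depots of a sheep entered as separate libraries and the pairing was not used. In prenatal T sheep MIR133 had a log2 fold change of 3.80 (SE 0.78, 95% interval 2.17 to 5.43, adjusted p = 0.00357) for epicardial fat over the mean of the other 3 depots. This was the largest change of the 84 microRNAs tested, and 4 of the 84 (4.76%) were called, 2 higher and 2 lower (2.38% each). The others were MIR323A, of the imprinted DLK1-DIO3 cluster, which rose, and MIR10A and MIR10B, of the HOX gene clusters, which fell. This fit takes 1 spread for all 4 depots, but in prenatal T sheep the SD of the log2 share was 2.69 in epicardial fat. It was 0.34 in perirenal, 0.93 in subcutaneous and 1.49 in visceral fat. The SE, interval and p given for MIR133 in prenatal T sheep can therefore be too small. An exact test within these 4 sheep could not give a p under 0.125. In control sheep MIR133 rose too, with a log2 fold change of 1.98 (SE 0.57, 95% interval 0.78 to 3.17, limma adjusted p = 0.0100). There 32 of 76 microRNAs (42.1%) were called, 16 higher and 16 lower, so that a call was common, and MIR133 had the fourth largest change.

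Single sheep decided these calls. In control sheep the limma adjusted p was 0.0838 without sheep 098, with a log2 fold change of 1.41. In prenatal T sheep it was 0.0770 without sheep 48 (2.94) and 0.0966 without sheep 185 (3.21), and within the early library set, which holds 2 epicardial libraries, it was 0.396 (2.29). Without sheep 255, the only prenatal T sheep with low epicardial MIR133, the log2 fold change was 5.13. All 4 epicardial control libraries belong to the later set, and with a set term the control difference was 2.86 (limma adjusted p = 0.000888). The prenatal T difference with a set term was 3.77 (limma adjusted p = 0.0135).

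The excess of epicardial fat over the mean of a sheep's other depots averaged 4.09 log2 units in prenatal T sheep and 2.51 in control sheep. The difference of 1.58 did not pass the exact permutation test over sheep (p = 0.429, adjusted p = 0.857 over 4 depots), which with 4 sheep against 4 cannot give a p under 0.0286. The same exact permutation test gave 0.08 for subcutaneous (p = 0.886), -0.55 for visceral (p = 0.657) and -1.11 for perirenal fat (p = 0.343). A difference of the treatment effect between depots was therefore not shown.

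Prenatal T was compared with control within each depot. No microRNA was called by limma in any depot, 0% of the 71 to 86 tested. In perirenal fat MIR133 had the largest change and the smallest p of 86 microRNAs. Prenatal T sheep had 121 to 262 normalised reads and controls 356 to 2528, without overlap on the authors' scale. On CPM the groups overlapped, with 334 CPM in the highest prenatal T library and 317 CPM in the lowest control. How many of the other microRNAs were without overlap was not counted. The log2 fold change of MIR133 was -1.95 (95% interval -3.15 to -0.75, limma adjusted p = 0.368). In this depot 7 microRNAs had an unadjusted p under 0.05.

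The perirenal value moved with the method and the scale. The deposited read scale divides by a size factor that the share does not use. On the share, the median of all microRNAs lay at 0.52 rather than -0.06, and MIR133 changed by -1.37 (exact permutation p = 0.0571, adjusted p = 0.229 over 4 depots). Relative to those medians the change was -1.89 on both scales. A size factor moves all microRNAs of a library by about the same log2 amount, so that this equality is no separate check. DESeq2 called MIR133 in this depot (-2.31, adjusted p = 0.00784) and no other microRNA, and edgeR did not (-2.25, adjusted p = 0.224). Without sheep 132, whose perirenal library held 2573 CPM, the change was -1.38 in the limma fit. All 4 prenatal T libraries and 3 of 4 controls were of the early set, and with a set term the change was -2.07 (limma adjusted p = 0.486).

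In the other depots the intervals included 0. The log2 fold change was -1.38 in visceral (95% interval -3.15 to 0.39, limma adjusted p = 0.477), -0.75 in subcutaneous (-1.92 to 0.43, limma adjusted p = 0.997) and 0.65 in epicardial fat (-1.63 to 2.92, limma adjusted p = 0.706). Without sheep 48 the epicardial value turned to -0.19. Averaged over a sheep's 4 depots, the log2 share differed by -0.54 (exact permutation p = 0.2). On linear shares the difference had the opposite sign, 1465 CPM (exact permutation p = 0.429). In the counts at an unadjusted p under 0.05, limma had 4 microRNAs in visceral, 2 in subcutaneous and 20 in epicardial fat, and MIR133 was not among them. After adjustment DESeq2 called 10 microRNAs in epicardial and 1 in visceral fat, and edgeR called 2 in subcutaneous fat.

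For BPA, MIR133 had a log2 fold change of 0.31 in visceral (95% interval -0.95 to 1.57, limma adjusted p = 0.850) and 0.45 in subcutaneous fat (-0.40 to 1.31, limma adjusted p = 0.653), and again 0% of the 76 and 71 microRNAs were called. At an unadjusted p under 0.05 there were 4 in visceral and 6 in subcutaneous fat, and neither edgeR nor DESeq2 called any after adjustment. Averaged over both depots, the log2 share differed by 0.24 (exact permutation p = 0.686). The visceral value was negative with a set term (-0.36) and without sheep 928 (-0.12) or sheep 984 (-0.25), so that its direction was not settled. In subcutaneous fat library set and treatment were partly confounded. Only the highest control there, sheep 908 (323 CPM), had an early library number. A set term raised the subcutaneous value to 0.74 (limma adjusted p = 0.514), and leaving out sheep 924 lowered it to 0.13. It stayed positive and MIR133 uncalled in 16 of 16 alternatives to the main fit. An absence of change cannot be read from intervals that reach up to 1.57 and 1.31 log2 units.

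**Figure D3:**
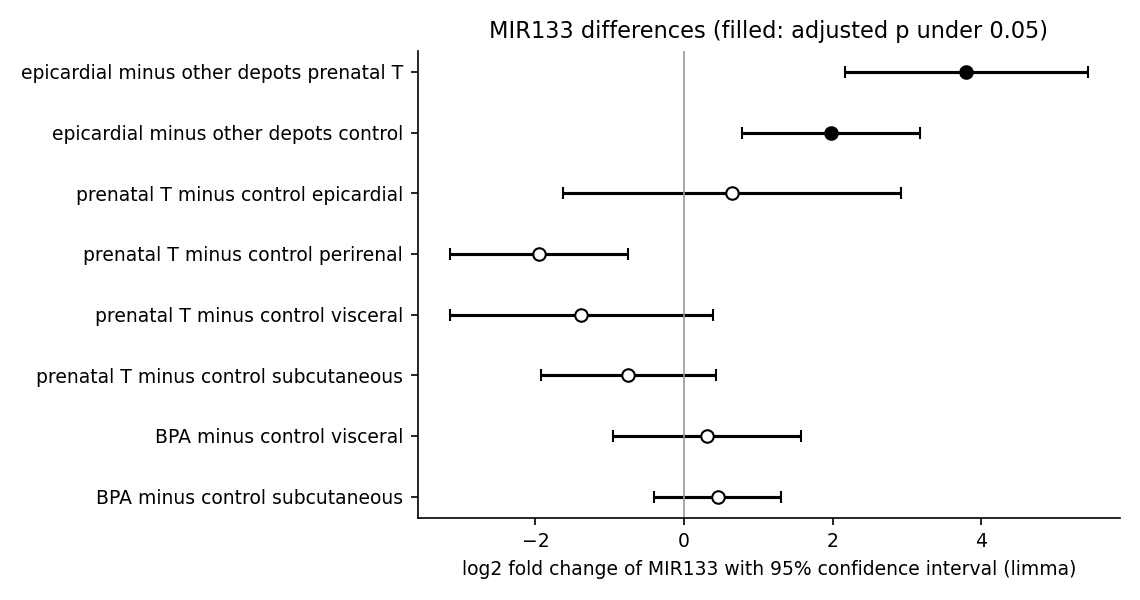
Log2 fold change of MIR133 with its 95% confidence interval from limma in 8 comparisons, each named with the group on top of the fold change first. Filled points have an adjusted p under 0.05: these are the 2 of epicardial fat over the other depots, at 3.80 in prenatal T and 1.98 in control sheep. The perirenal interval of prenatal T excludes 0 before adjustment, and the other 5 include it.

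Scatter among sheep of the same group differed by depot. In epicardial fat its within-group SD was 2.01 on the log2 share, the highest of 80 microRNAs, whose median was 0.50. Over all 4 depots of the T cohort it was 1.43, below MIR200B and MIR200A of epithelium, with a median of 0.72. In visceral fat of the BPA cohort it was 1.23, the highest of 73, with a median of 0.45. In the other depots it ranked lower, 12 in visceral (1.55), 13 in subcutaneous (0.87) and 27 in perirenal fat (0.96) of 80 microRNAs in the T cohort, and 29 of 73 in subcutaneous fat of the BPA cohort (0.62). Counting error was far smaller than this scatter in epicardial fat, where every library held at least 352 MIR133 reads.

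Other cell type microRNAs were read beside MIR133. Of a list of 9 microRNAs of striated muscle, MIR133 was the one matched, and the other 8 were not analysed here, so that no second muscle microRNA stands beside it. MIR143, of smooth muscle, made up 2.39% to 9.12% of microRNA reads in epicardial prenatal T and 1.39% to 2.65% in epicardial control libraries. In perirenal fat it made up 10.7% to 17.5% in prenatal T and 3.72% to 15.3% in control libraries. In control sheep its log2 fold change in epicardial fat over the mean of the other depots was -1.56 (1 of 1 tested of 2 listed, limma adjusted p = 0.000675), where MIR133 rose. Only perirenal fat stood far above: median control shares were 2.42% in epicardial, 2.42% in visceral, 2.83% in subcutaneous and 12.3% in perirenal fat. In prenatal T sheep the MIR143 change was -0.81 and not called (limma adjusted p = 0.346). On shares it was -1.03 in control sheep (limma adjusted p = 0.0232). MIR150, of lymphocytes, made up 0.276% to 0.541% in epicardial prenatal T and 0.67% to 0.814% in epicardial control libraries, and the listed epithelial microRNAs MIR200A, MIR200B and MIR200C together at most 0.0178% and 0.0135%. By limma neither of these 2 lists had a called member in either comparison of epicardial fat with the other depots, where 42.1% (control) and 4.76% (prenatal T) of all microRNAs were called, or in the 6 of treatment, where 0% were.

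Of 12 listed microRNAs of fat cells and adipogenesis, 9 were tested. In epicardial fat of control sheep 2 of the 9 fell, MIR103 and MIR30A, and 0 rose, where 21.1% of all microRNAs tested fell and 21.1% rose, with a median log2 fold change of -0.12 for the list and 0.00 for all 76 microRNAs. On shares neither was called (MIR103 -0.32, limma adjusted p = 0.381, and MIR30A -0.17, limma adjusted p = 0.602). In the other 7 comparisons limma called 0 of the 9. In 6 of these, those of treatment, it called 0% of all microRNAs, and in the other 4.76%. Together they made up 12.6% to 14.4% of microRNA reads in epicardial prenatal T and 9.12% to 15.7% in epicardial control libraries. The part of these cell types in the MIR133 level was not tested.

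The microRNAs whose log2 share most resembled that of MIR133 over the 32 libraries of the T cohort were MIR323A (Pearson r 0.66), MIR26A (0.63), MIR30C (0.46), MIR23B (0.44) and MIR329A (0.42). These are descriptions over libraries that share sheep, depots and the total they are divided by. With the group means taken out, MIR26A had an r of 0.50, MIR23B 0.49, MIR30C 0.33, MIR323A 0.26 and MIR329A 0.07. MIR200A, of the epithelial list and outside the first 5, had 0.51. MIR10B (-0.35) and MIR10A (-0.57) were the most opposed, and with the group means taken out both were positive (0.18 and 0.26). Over the 16 libraries of the BPA cohort the order was MIR194 (0.50), MIR143 (0.47), MIR374A (0.32), MIR26A (0.31) and MIR191 (0.28), with MIR200C (-0.35) and MIR200A (-0.37) at the other end. MIR26A was the one microRNA in the first 5 of both cohorts.

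In the other RNA classes 1 row followed MIR133 closely, at 1.03 to 2.58 reads per MIR133 read. LOC105604459, listed as a lncRNA, had an r of 0.96 with MIR133 over the T cohort and 0.99 over the BPA cohort, and 0.966 and 0.995 with the group means taken out. It had more reads than MIR133 in 48 of 48 libraries. In epicardial fat of sheep 48 it had 14414 reads beside 13621 of MIR133, in that of sheep 185 24638 beside 13599, and in that of sheep 098 5666 beside 5290. In visceral fat of prenatal T sheep 48, which held few reads of either, it had 31 beside 29. It made up 16.6% of all lncRNA reads in epicardial fat of sheep 48 and 0.0526% in the library where its share was lowest.

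In the RefSeq annotation of the sheep assembly ARS-UI_Ramb_v3.0, LOC105604459 lies inside the gene MIB1, and MIR133 lies elsewhere, between the lncRNA genes LOC114117601 and LOC114117482 and near SLCO4A1 and GATA5. In human, as background, miR-133a has more than 1 gene copy with the same mature RNA, and one copy lies in an intron of MIB1. The MIR133 row is therefore uncertain as to its locus: how reads that match several places were counted is not stated in the labels or the processing notes, and whether the same reads stand in both rows was not tested. LOC105604459 is for this reason not a second, independent measure. LOC114117601, next to MIR133, had at most 3 reads in any library.

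The ratio of the 2 rows was not constant. In 39 libraries LOC105604459 had 1.03 to 1.37 reads per MIR133 read (median 1.09). In the 9 libraries numbered 38 to 48 it had 1.32 to 2.58 (median 1.81). These 9 are 7 of the 8 perirenal libraries and 2 epicardial prenatal T libraries, of sheep 185 and sheep 255. The 8th perirenal library, of control sheep 098, has a later number and a ratio of 1.21, and the epicardial prenatal T libraries with later numbers, of sheep 48 and sheep 233, had 1.06 and 1.05. Within perirenal fat the ratio was 1.32 to 2.17 in prenatal T and 1.21 to 2.58 in control libraries. The highest ratio outside these library numbers, 1.37, in visceral fat of prenatal T sheep 185, lay above the lowest within them. Library number and perirenal depot coincide in all but a few libraries. Within epicardial prenatal T, the libraries numbered 38 and 40 had 1.81 and 1.64, against the 1.06 and 1.05 of the later numbers. The parts of library number and depot in the ratio were not tested. The part of the library number in the MIR133 level itself was not tested.

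**Figure D4:**
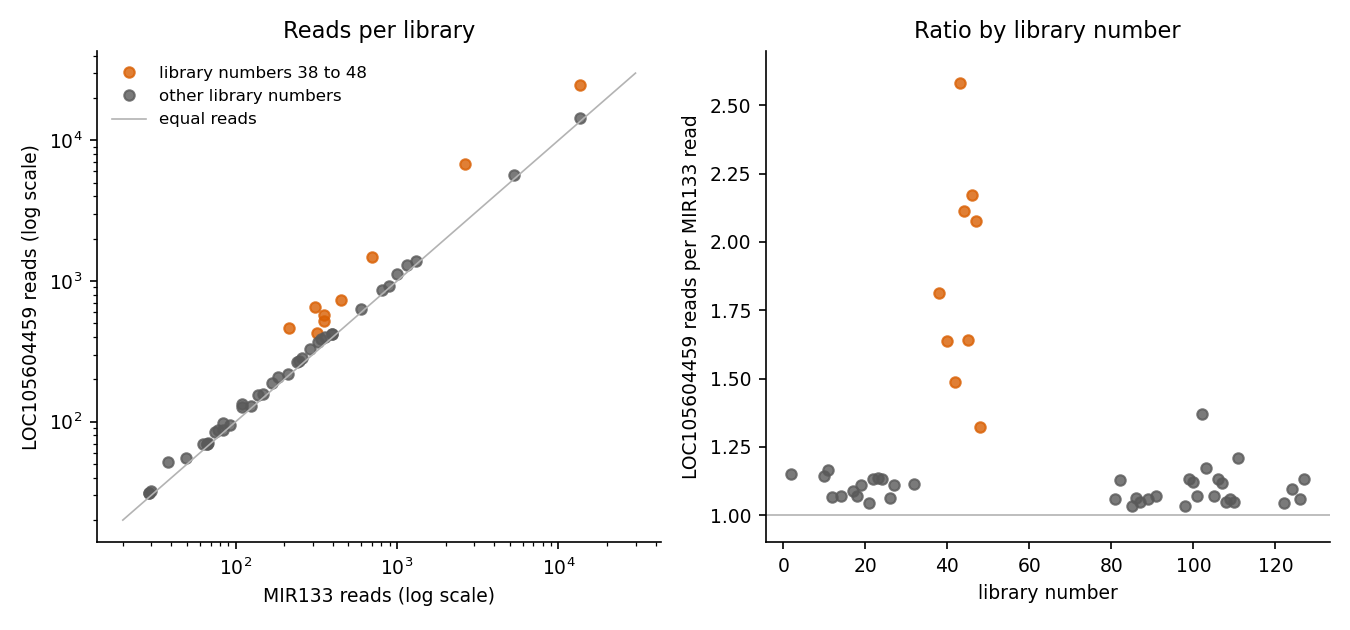
Left, reads of LOC105604459 against reads of MIR133 in each of 48 libraries (log axes), with the line of equal reads. Right, their ratio against the library number. All points lie above equality, and the 9 libraries numbered 38 to 48 (orange) have ratios of 1.32 to 2.58, against 1.03 to 1.37 in the other 39.

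Other lncRNAs followed MIR133 less closely, in reads not scaled for depth. LOC105602359 (r 0.77) had 41 to 178 reads in epicardial prenatal T and 36 to 245 in epicardial control libraries, and at most 54 elsewhere in the T cohort. LOC101105119 (r 0.65) had 210 to 1000 reads in epicardial prenatal T and 113 to 556 in epicardial control libraries, and at most 213 elsewhere. With the group means taken out their r was 0.47 and 0.31. In the BPA cohort LOC105603743 (0.83) and LOC114117338 (0.63) came after LOC105604459, the last with 1 to 18 reads only.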

How the data were processed

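Per the labels' protocols, total RNA of adipose tissue was made into libraries with a kit for small RNA. The submitters' processing notes name cutadapt 3.2, STAR 2.6.0c and featureCounts 1.6.1. The genome build, annotation and counting settings are not given in the sources used here. What the authors deposited is a signal: for each of 4 RNA classes and each cohort, a table of reads over a size factor for each library.

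All 100% of values above 0 were whole multiples of a step per library (tolerance 1e-05), from which reads were recovered. A microRNA table has few low values per library, so its read unit rests also on a second check: the reciprocals of the steps equalled median-ratio size factors computed from the recovered reads within each depot (largest log2 difference 0). The scaling was thus set per depot, and depots were compared on the share of microRNA reads (CPM) or on reads rescaled over the libraries compared. No library of a group matched another within counting noise, and no column was left out.

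Treatment was fitted within each depot on log2(deposited value + 1), and epicardial fat against the mean of the other 3 depots on rescaled reads, with limma 3.58.1 (R 4.3.3), over microRNAs with a mean of at least 5, with Benjamini-Hochberg adjustment over all of them and a threshold of 0.05. Such fold changes understate those of low microRNAs. The fit was tested on simulated data. Single values were tested by exact two-sided permutation on the log2 share plus 1 CPM (scipy 1.17.1). edgeR 4.0.16 and DESeq2 1.42.0 on the recovered microRNA reads are alternatives only. Other alternatives were the pseudocount, the filter, the scaling, a library set term, 1 library set, sheep as a block and each sheep left out. The p-values of treatment take the 4 sheep of a group as its replicates. In the main fit of epicardial fat against the other 3 depots, the libraries of a sheep were taken as separate.

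Libraries of different depots are paired, since the labels give the same sheep. For deviations from the group means, the median r was 0.141 within and -0.025 between sheep of the T cohort, and 0.186 within and 0.016 between sheep of the BPA cohort. Sheep was not a block in the main fits.

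MIR133, the marker lists and the tests were chosen with earlier results of these data known. Named are MIR133, members of the marker lists, the 5 microRNAs most and 2 least correlated with it and the 3 such features of other classes in each cohort, and its neighbours in level. DLK1-DIO3 and HOX microRNAs among the calls were named after their values were seen. All 105 microRNA symbols matched the RefSeq table. Of the cell type lists for endothelium, erythrocytes and brown fat 0 members were matched, and they are not analysed here. Sequences are not reported.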

Additional observations from a re-analysis of the deposited data

Results flagged for a closer look

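In 2 of 12 groups of 4 libraries, 1 library stood far from the other 3 in MIR133 share. Chance gives such a gap in about 1 in 20 groups of normally distributed values. The gap was measured on CPM. On log2 CPM the gap to the next library was 0.665 of the range in the perirenal and 0.783 in the subcutaneous group, both under the limit for 4 libraries, so that neither stood apart on that scale. In perirenal fat of control sheep the highest library, of sheep 132, had 2573 CPM, and the next had 640 CPM. This sheep's perirenal level was also above its epicardial level of 2297 CPM. In subcutaneous fat of control sheep of the T cohort the highest library, of sheep 131, had 881 CPM, and the next had 347 CPM. Both libraries belong to the early library set. No difference of the treatment effect between depots passed its test.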

How the results depend on the processing

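Of 123 alternatives to the 8 limma results, 114 kept direction and side of the threshold. The epicardial difference kept its direction in all of them: 1.41 to 2.34 in control and 2.94 to 5.13 in prenatal T sheep with each sheep left out, and 2.29 in prenatal T within the early set. With the replicate block, that is sheep as a block, the adjusted p was 0.00607 in control and 0.00279 in prenatal T sheep, and MIR133 was called in both, as without the block. The block called 39 microRNAs in control sheep, against 32. On shares, called microRNAs in control sheep split 32 higher and 3 lower, against 16 and 16 after rescaling, and 29 and 4 as deposited, where the median of all microRNAs shifted to 0.53 and 0.37. In prenatal T sheep 18 were called on the deposited scaling, 9 with DESeq2 and 2 within the early set or without sheep 48 or 185, against 4. In control sheep 15 were called without sheep 201 and 21 without sheep 132, against 32. For prenatal T in epicardial fat 10 were called with DESeq2 and 8 without sheep 233, against 0, and for subcutaneous fat 2 with edgeR or on shares.

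The perirenal prenatal T value was called by DESeq2 alone (-2.31). The epicardial prenatal T value ran from -0.19 to 1.79 with each sheep left out, and the visceral BPA value from -0.25 to 0.91, and -0.36 with a set term. The cause was not tested. Left-out sheep gave ranges in the exact tests of 2.46 to 3.40 (epicardial minus perirenal), 2.83 to 3.89 (minus subcutaneous) and 3.01 to 4.26 (minus visceral), where fewer sheep raise the smallest p. They gave -0.0018 to 0.66 (perirenal minus subcutaneous), -0.41 to 0.11 (visceral minus subcutaneous, T cohort) and -0.32 to 0.10 (BPA cohort). Visceral minus subcutaneous fat was also positive on linear shares, 78.9 CPM (T cohort) and 38.3 CPM (BPA cohort), and at a pseudocount of 100 CPM, 0.0201 (BPA cohort).

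For prenatal T the mean over depots turned positive on linear shares, 1465 CPM, the effect in subcutaneous minus other depots -2116 CPM and, with sheep left out, -0.36 to 0.47, that in visceral minus other depots -1.51 to 0.14, and the epicardial share difference -0.23 to 1.81. For BPA the mean over depots ran from -0.0394 to 0.66, visceral from -0.29 to 0.82, subcutaneous from -0.0172 to 0.50 and their difference from -0.50 to 0.42, or -0.13 rescaled. These values had not passed a test, and depth limits the lowest libraries to 29 MIR133 reads.

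Within 1 library set no fit was possible where an arm kept fewer than 2 libraries. As shares of all 4 RNA classes, MIR133 kept its order over libraries (Spearman rho 0.997).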
